A study of Drosophila melanogaster with 2 samples.

Results

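The genes examined here are 10 Drosophila melanogaster loci that encode nucleoporins, out of 15421 genes listed. They were chosen by symbol as Nup44A, Nup50, Nup54, Nup58, Nup62, Nup75, Nup107, Nup153, Nup154 and Nup214, and their choice was made with results of these libraries known. The values that entered that choice were the dBigH1 and input signals over each gene and those of genes of similar width, so they are given as a description and no test was made. The table holds 15 genes with a symbol of this form, and the remaining 5 are treated below among 20 other nucleoporin genes. An antibody to dBigH1, the germline-specific variant of linker histone H1, was used on chromatin of dissected testes from adult males of the w1118 stock, and input DNA of such testes, with no antibody, was its reference. There was 1 dBigH1 library and 1 input library, each from the pooled testes of many animals, so no value has a replicate check. Whole testes hold somatic and germline cells of every stage, and a ratio averages over all of them.

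Nuclear pore complexes are large assemblies of nucleoporins that span the nuclear envelope and carry RNA and protein between nucleus and cytoplasm. Scaffold nucleoporins of the Y complex and the inner ring build the frame of the pore, while nucleoporins with phenylalanine-glycine (FG) repeats fill the channel and extend as filaments and a nuclear basket that bind transport receptors. In flies several nucleoporins also bind chromatin inside the nucleus, and some, such as Nup154 and Nup98, are needed for the germline. The measurements below concern the DNA of the nucleoporin genes and how much dBigH1 lies on it, not the proteins.

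The dBigH1 library held 2864636 reads and the input library 12747726. The median gene had 20 dBigH1 reads and 197 input reads. Scaled by library totals, the median gene had a log2 ratio of dBigH1 over input of -1.005, and every ratio below is the log2 ratio of reads relative to this median gene unless stated otherwise. With library totals alone all ratios are lower by that amount, which puts all 10 members and all genes of both lists below 0. Intervals are 95% exact Clopper-Pearson intervals from the reads of 1 library per group, so they cover counting error only. Reads carried no molecular identifiers, and any PCR copies counted among them would make the intervals too narrow. All 10 members had reads in both libraries and no member was lost to a filter.

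As a group, the nucleoporin genes carried less dBigH1 than the median gene. Their summed reads were 311 in the dBigH1 library against 3711 in input, a pooled log2 ratio of -0.42 (-0.59 to -0.25), or 1.34-fold below the median gene. Summed in the same way over all 15421 genes, the pooled ratio was 0.40. The median gene is thus not the level of a pool of all genes, for this and every pooled ratio below. The median over the 10 genes was -0.43, against 0 over all genes by construction. Of the 10 genes, 9 lay below the median gene and 1 above. Nup154 and Nup153, which were close to it, also moved above with a pseudocount of 5 RPKM, which left 7 below. The same 2 genes were above the median of the deposited score, although the score of Nup153 itself was -0.003. At least 1.5-fold below it were 5 of 10 members, where 17.3% of all genes were called in this direction, and 0 of 10 were at least 1.5-fold above it, where 16.2% of all genes were. The interval lay wholly below the median gene for 4 members (9.41% of all genes) and wholly above it for 1 (17.9% of all genes). Since the same contrast served to choose the members, nothing is read from these shares.

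**Figure D1:**
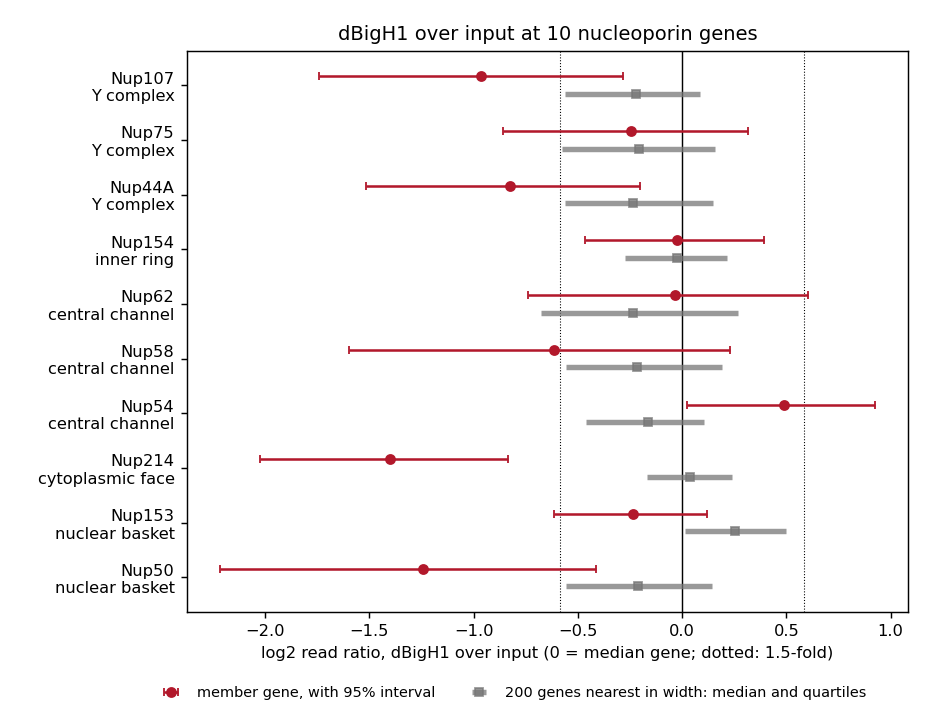
Log2 read ratio of dBigH1 over input (x axis, 0 is the median gene) for each of the 10 nucleoporin genes (red points, bars are 95% counting intervals), above the median and quartiles of the 200 genes nearest in width (grey). Nup214, at -1.40, and Nup50, at -1.25, lie farthest below their width-matched genes, and Nup54, at 0.49, lies above its own; scaled by library totals alone, Nup54 is also below 0.

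The Y complex forms the outer rings of the pore, and its 3 members had a pooled log2 ratio of -0.66 (-1.03 to -0.30). Nup107 (FBgn0027868, chromosome 2L, 10733293 to 10736077, build dm3), a core subunit of this complex, had 18 dBigH1 reads against 314 input reads. The level per kb, as RPKM (reads divided by gene length in kb and by library size), was 2.26 with dBigH1 and 8.84 with input, and the log2 ratio was -0.97 (-1.74 to -0.28). Nup44A (FBgn0033247, chromosome 2R, 3875967 to 3878789) encodes the fly Seh1 protein, which is shared with the nutrient-sensing GATOR complex. It had 22 dBigH1 reads against 348 input reads, RPKM values of 2.72 for dBigH1 and 9.67 for input, and a log2 ratio of -0.83 (-1.52 to -0.20). Both genes thus had intervals below the median gene. Nup75 (FBgn0034310, chromosome 2R, 14052199 to 14054645), another subunit of the Y complex, had 28 dBigH1 reads against 296 input reads and RPKM values of 3.99 for dBigH1 and 9.49 for input. Its log2 ratio was -0.24 (-0.86 to 0.32), an interval that spanned the median gene.

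The inner ring was represented by Nup154 (FBgn0021761, chromosome 2L, 11004823 to 11009878), whose protein is required for gamete formation in both sexes of the fly. It had 52 dBigH1 reads against 472 input reads, with RPKM values of 3.59 for dBigH1 and 7.32 for input. Its log2 ratio of -0.02 (-0.47 to 0.39) was close to that of the median gene.

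Nup62, Nup58 and Nup54 encode the FG proteins that form a trimer in the central channel, and their genes differed among themselves. Nup54 (FBgn0033737, chromosome 2R, 8315954 to 8318600) had 49 dBigH1 reads against 312 input reads, and RPKM values of 6.46 for dBigH1 and 9.25 for input. It was the highest of the 10 and the one member above the median gene, at 0.49 (0.02 to 0.93), although scaling by library totals alone put it at -0.52. Nup62 (FBgn0034118, chromosome 2R, 12231882 to 12233333) had 22 dBigH1 reads against 201 input reads, RPKM values of 5.29 for dBigH1 and 10.9 for input, and a log2 ratio of -0.03 (-0.74 to 0.60). Nup58 (FBgn0038722, chromosome 3R, 15470750 to 15472628) had 12 dBigH1 reads against 164 input reads. RPKM values were 2.23 for dBigH1 and 6.85 for input, and the log2 ratio of -0.61 (-1.60 to 0.23) was just past 1.5-fold with an interval that spanned the median gene. With a pseudocount of 1 RPKM it was -0.43, which ends that call. The pooled ratio of these 3 genes was 0.13 (-0.22 to 0.46), an interval that spanned the median gene, and 2 of the 3 genes were below it. The pooled ratio of Nup62 and Nup58 without Nup54 was -0.27 (-0.82 to 0.24), so the pooled value above 0 rested on Nup54.

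Nup214 (FBgn0010660, chromosome 2R, 18806459 to 18812255) encodes the FG protein of the cytoplasmic filaments, which with Nup88, the product of mbo, holds the exportin CRM1 at the pore in flies. It was the lowest member. It had 26 dBigH1 reads against 613 input reads, with RPKM values of 1.57 for dBigH1 and 8.30 for input. The log2 ratio was -1.40 (-2.03 to -0.84), which is 2.64-fold below the median gene, and 2.76% of all genes were lower.

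The nuclear basket, on the inner face of the pore, was represented by Nup153 and Nup50. Nup50 (FBgn0033264, chromosome 2R, 4010521 to 4012563), a mobile FG protein that binds importin alpha, had 12 dBigH1 reads against 254 input reads. RPKM values were 2.05 for dBigH1 and 9.75 for input, and the log2 ratio was -1.25 (-2.22 to -0.42), or 2.37-fold below the median gene. Nup153 (FBgn0061200, chromosome X, 16493356 to 16504492), which anchors the basket and in flies also binds chromatin, is the widest member at 11137 bases. It had 70 dBigH1 reads against 737 input reads, RPKM values of 2.19 for dBigH1 and 5.19 for input, and a log2 ratio of -0.24 (-0.61 to 0.12). Males have a single X, and the median input RPKM of X-linked genes was 4.74, against 8.60 for genes of the 4 large autosomal arms.

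The members differed more in the dBigH1 library than in input. Among the 9 members that are not X-linked, RPKM ran from 1.57 to 6.46 in the dBigH1 library, a 4.13-fold range, and from 6.85 to 10.9 in input, a 1.59-fold range. These values rest on 12 to 52 dBigH1 reads and 164 to 613 input reads, so counting error is larger in the dBigH1 library. Ordered by log2 ratio the genes ran Nup54, Nup154, Nup62, Nup153, Nup75, Nup58, Nup44A, Nup107, Nup50 and Nup214, and each overlapped its neighbours in this order within the counting intervals. Of the 45 pairs of members, 7 had intervals that did not overlap, and each of these held Nup54 or Nup214. The share of such pairs among other genes was not computed, so nothing is read from this count. Nup54 was the higher gene in 4 of the 7 pairs, over Nup107, Nup44A, Nup50 and Nup214. Nup214 was the lower gene in 4, under Nup54, Nup154, Nup62 and Nup153.

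**Figure D2:**
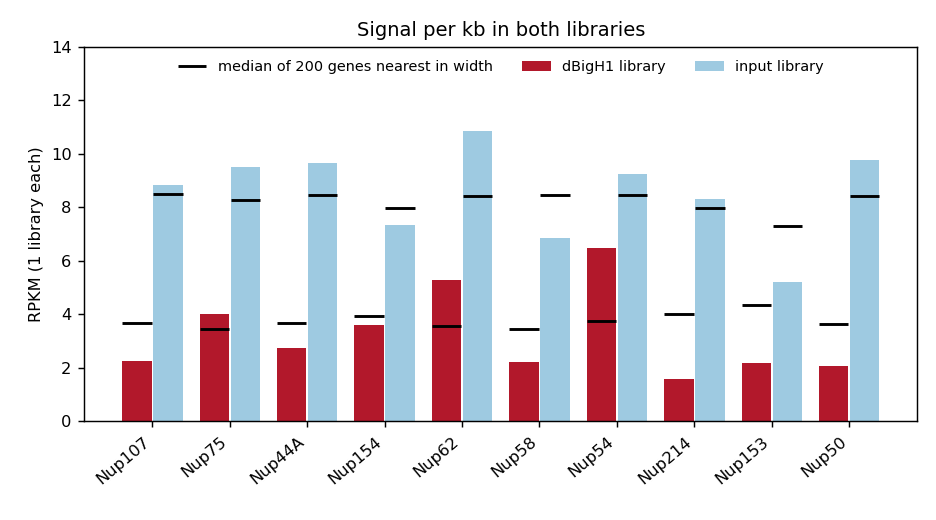
RPKM of the 10 nucleoporin genes in the dBigH1 library (red bars, left) and in input (blue bars, right), 1 library each; black lines are medians of the 200 genes nearest in width in the same library. dBigH1 RPKM runs from 1.57 at Nup214 to 6.46 at Nup54, while input RPKM of both genes is near that of genes of like width.

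The ratio varies with gene width across the genome, so each member was set beside the 100 next shorter and 100 next longer genes. In this comparison 7 members lay below the median of their width-matched genes and 3 above, and 6 lay below their lower quartile, 3 within the quartiles and 1 above the upper one. For Nup214 at 5797 bases, 2 of 200 matched genes (5585 to 5997 bases) were lower, and their median was 0.04. Nup50 at 2043 bases had 4 of 200 lower, with a matched median of -0.21. Both had fewer dBigH1 reads than their matched genes, 26 against a median of 67 for Nup214 and 12 against a median of 21 for Nup50. Input did not show this, with 613 reads at Nup214 against a matched median of 591 and 254 at Nup50 against 219.

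The other members below their lower quartile were Nup107, Nup44A, Nup58 and Nup153. For Nup107, 12 of 200 matched genes were lower and the matched median was -0.22. Nup44A stood above 24 of its 200 and Nup58 above 45. On the deposited score Nup58 stood above 90 of its 200, so it was not below the lower quartile there. Nup153 was less than 1.5-fold below the median gene, but genes of its width (10456 to 11770 bases) had a median of 0.25, and 16 of 200 were lower. On that scale Nup153 differed from genes of like width by -0.49. When its matched genes were taken from the X alone, where the median of all 2317 genes was -0.12, the difference was -0.36.

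Nup154, Nup75 and Nup62 sat near the middle of genes of their width, with 102, 94 and 117 of 200 lower. On the deposited score their places moved, with 138, 53 and 72 of 200 lower. Nup54 was on the other side, with 187 of 200 lower and a matched median of -0.16, and it was above the median of its matched genes under each of the other 7 ways of matching or scaling that were run. It shares 501 of its 2647 bases with FBgn0262840, which has no symbol in the table and had 12 dBigH1 reads against 86 input reads. After all reads of that gene were taken from it, Nup54 had 37 dBigH1 reads against 226 input reads, a log2 ratio of 0.55 with a lower bound of 0.005.

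Pooled over members, the 311 dBigH1 reads compare with 430.8 reads that the members' input reads would give at the ratio of their own width-matched genes, which is 72.2% of that number. The summed reads of the matched sets, with a gene counted in each set that held it, gave a log2 ratio of 0.08. The members' pool was lower than this by 0.50 on the log2 scale. With each of the 1848 matched genes counted once, the ratio was 0.10 (0.09 to 0.11). The 2000 places in the matched sets, some filled by the same gene more than once, held 18.0% of genes at least 1.5-fold below the median gene and 8.30% at least 1.5-fold above it, set beside 5 and 0 of 10 members. The interval was wholly below the median gene in 14.1% of these places and wholly above it in 12.6%, set beside 4 and 1 of 10 members. With any 1 member left out, the interval of the members' pooled ratio stayed below the median gene. The ratio was -0.28 (-0.46 to -0.11) without Nup214, the member whose removal moved it up most, and -0.54 (-0.73 to -0.36) without Nup54.

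**Figure D3:**
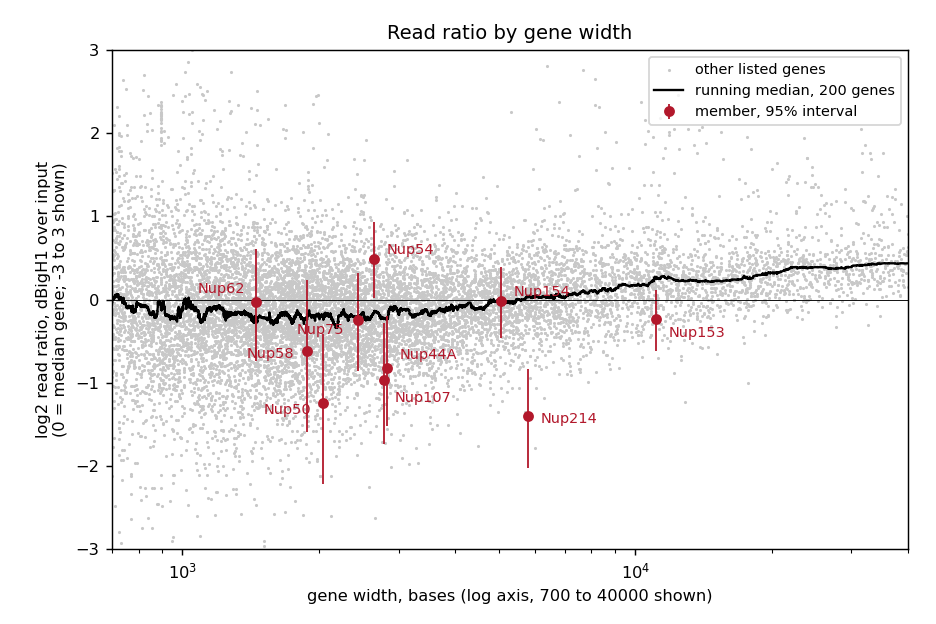
Log2 read ratio of dBigH1 over input (y axis, 0 is the median gene, -3 to 3 shown) against gene width in bases (log axis, 700 to 40000 shown); red points are the 10 members with 95% intervals, grey points other genes and the black line the running median of 200 genes. The line is below 0 near 2000 bases and above 0 at the width of Nup153, and 7 members lie under the median of genes of their width.

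The surroundings of each gene were described by the other listed genes within 50000 bases, a window chosen after the data were seen. Summed over such genes, the log2 ratio ran from -0.13 around Nup75 to 0.51 around Nup154, and 9 of 10 members lay below the summed ratio of their own surroundings, the exception being Nup54. Such sums weigh genes by their reads and take all reads of any gene that reaches into the window. Around Nup154 a single gene at 1.07 that lay mostly outside the window held 908 of the 2248 dBigH1 reads. Around Nup58 and Nup50, genes at 0.40 and 0.15 that also lay mostly outside the window held 1792 of 3030 and 583 of 1745. Against the median of the surrounding genes, which counts each gene alike, 7 of 10 members were below, and Nup62, Nup153 and Nup54 were above. At the summed ratios, which include such long genes whole, the members would have had 459.2 dBigH1 reads, of which the 311 found are 67.7%. Around Nup50, 0 of 30 genes were lower than it, and around Nup58, 0 of 19. Lower than Nup214 was 1 of 18 genes, lower than Nup107 was 1 of 23, and lower than Nup44A were 2 of 24. The other 5 members lay well inside the range of the genes around them. Lower than Nup154 were 8 of 19 genes, lower than Nup75 were 11 of 25 and lower than Nup62 were 9 of 17. Around Nup153 10 of 18 genes were lower, and around Nup54 20 of 30.

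Next to the lowest and highest members, single genes had the following ratios. Nup214 lies 169 bases from CG30187, which was at 0.46 (-0.20 to 1.06), and 357 bases from CG42678, the receptor expression-enhancing protein gene ReepA, at -0.32 (-0.68 to 0.02). Nup50 is flanked by CG30372, an ArfGAP gene, at -0.44 (-0.78 to -0.12), and by Socs44A, a suppressor of cytokine signalling, at -0.44 (-1.18 to 0.22). It shares 78 bases with coil, the gene of the Cajal body protein coilin, at -0.19 (-0.85 to 0.40). On the side of the highest values, Nup54 lies between CG13154, at -0.09 (-1.08 to 0.77), and CG8830, at -0.42 (-0.88 to 0.00).

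Nup154 lies 633 bases from the ribosomal protein gene RpL9, which had 10 dBigH1 reads against 193 input reads and was at -1.11 (-2.20 to -0.20). Across its other end it shares 58 bases with Art8, an arginine methyltransferase gene at 0.08 (-0.67 to 0.75), and beyond that comes dUTPase at 0.10 (-0.78 to 0.88). Nup107 shares 15 bases with Dpy-30L1, a gene related to a subunit of histone methyltransferase complexes, at -0.05 (-1.23 to 0.95). A read in the shared bases may be counted for both genes, but the overlaps of Nup154, Nup107 and Nup50 cover 1.15%, 0.54% and 3.82% of the member. The other 6 members overlap no listed gene, and their pooled ratio was -0.55 (-0.78 to -0.33).

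**Figure D4:**
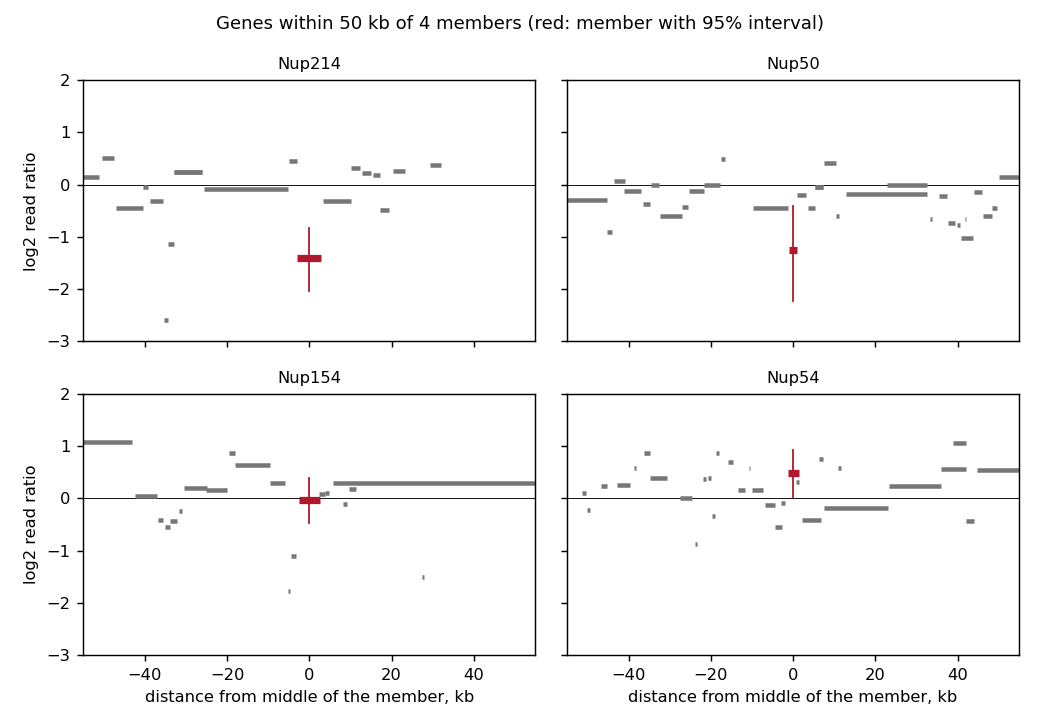
Log2 read ratio of each listed gene (horizontal bars, drawn over the gene's extent) against the distance in kb from the middle of Nup214, Nup50, Nup154 and Nup54 (red, vertical line is the 95% interval), for genes within 50000 bases. Nup214 and Nup50 lie below nearly all genes around them (1 of 18 and 0 of 30 are lower), while Nup154, at -0.02, and Nup54, at 0.49, lie within the range of theirs; these positions are relative to the median gene.

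The other 20 nucleoporin genes, all of which were found in the table, had a pooled log2 ratio of -0.26 (-0.37 to -0.16) and a median of -0.42. Of these, 16 were below the median gene, 7 were at least 1.5-fold below it and 0 at least 1.5-fold above it, on the background of 17.3% and 16.2% of all genes given above. With a pseudocount of 1 RPKM, 2 of the 20 were at least 1.5-fold lower, where 1780 of 15421 genes were, so the larger share among these genes depends on the pseudocount. The interval was wholly below the median gene for 8, where it was for 9.41% of all genes, and wholly above it for 1, where it was for 17.9%. Lowest were Rae1, an mRNA export factor, at -1.17 (-2.25 to -0.26), mbo, which encodes the partner of Nup214, at -0.996 (-1.82 to -0.27), and Nup35, an inner ring gene on the X listed as CG6540, at -0.98 on 5 dBigH1 reads (-2.64 to 0.30). Highest were Gp210, which encodes a membrane protein of the pore, at 0.34 (0.08 to 0.59), Nup37 at 0.12 (-0.63 to 0.80) and Nup160 at 0.07 (-0.32 to 0.45). Under the scaling by library totals these 3 were below 0 as well. Genes nearest in width to Gp210 (11705 bases) had a median of 0.26, and 124 of 200 were lower than it. For Nup37 and Nup160, 137 and 123 of 200 were lower.

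All 30 nucleoporin genes were then grouped by the place of the protein in the pore. The 6 genes of the cytoplasmic face were all below the median gene, with 4 of them at least 1.5-fold below it, where 17.3% of all genes were, and their pooled ratio was -0.67 (-0.90 to -0.45). The 6 inner ring genes were also all below, with a pooled ratio of -0.37 (-0.58 to -0.16), as were the 3 nuclear basket genes, at -0.47 (-0.72 to -0.23). The interval lay wholly below the median gene for 2 of the 6 and 2 of the 3, where it did for 9.41% of all genes. Among these genes, Nup154 and Nup153 changed side under the other settings given above. Of 10 Y complex genes 7 were below, at a pooled ratio of -0.30 (-0.47 to -0.14). Both parts with a pooled ratio above the median gene were small, the central channel with its 3 members and the pore membrane with 2 genes at 0.23 (-0.01 to 0.45). The pooled ratio of all genes was higher than that of both parts, at 0.40, and lay within both intervals. These parts were grouped after the values were seen, and their pooled ratios were not matched for width.

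By chromosome, 6 of 6 X-linked nucleoporin genes were below the median gene, from -0.98 to -0.24, and all 6 were also below the median of genes of like width on the X. Of 24 on the large autosomal arms 19 were below the median gene, with a median of -0.37.

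Genes of nuclear transport receptors and the Ran system served for comparison. The 27 genes had a median of -0.19 and a pooled ratio of -0.10 (-0.19 to -0.02), 18 of them were below the median gene, and 5 were at least 1.5-fold below it, where 17.3% of all genes were. None of the 27 was at least 1.5-fold above the median gene, where 16.2% of all genes were. On the deposited score 1 passed the same number, 0.585, which is not a fold there. Lowest were Ran-like, a testis-expressed retrocopy of Ran, at -1.37 on 4 dBigH1 reads (-3.27 to 0.04) that may be uncertain where its sequence matches that of Ran, Ranbp21, which encodes exportin-5, at -1.06 (-1.81 to -0.40), and Rcc1, the exchange factor of Ran, at -0.78 (-1.44 to -0.18). Highest were Fs(2)Ket, which encodes importin beta, at 0.50 (0.26 to 0.73), nxf2, a nuclear export factor gene of the piRNA pathway, at 0.30 (-0.14 to 0.73), and Pen, an importin alpha gene, at 0.24 (-0.23 to 0.68). Genes nearest in width to Fs(2)Ket (16232 bases) had a median of 0.23, and 167 of 200 were lower than it. For nxf2 and Pen, 180 and 159 of 200 were lower. The difference between the nucleoporin and the transport genes was not tested.

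**Figure D5:**
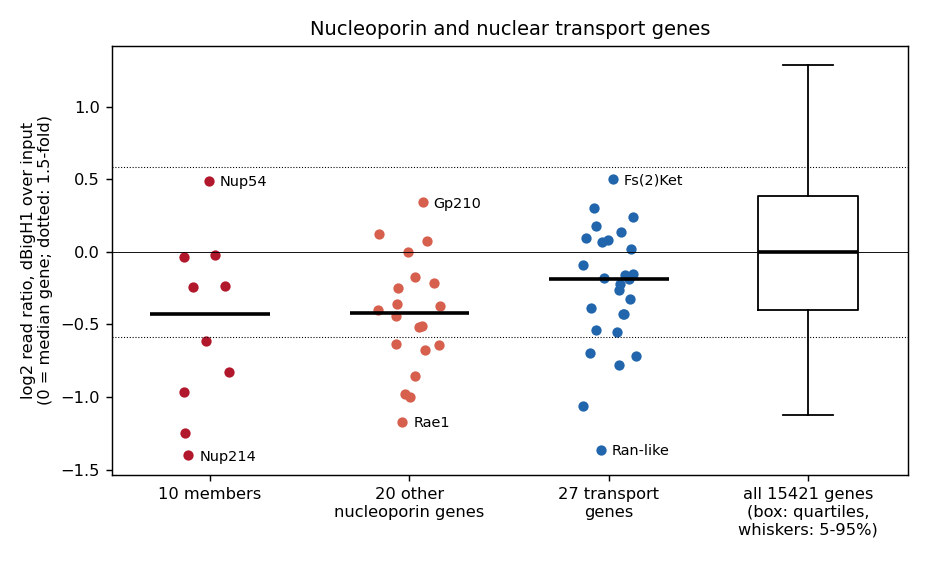
Log2 read ratio of dBigH1 over input (y axis, 0 is the median gene, dotted lines 1.5-fold) for the 10 members, 20 other nucleoporin genes and 27 transport genes (points are genes, lines medians), beside all 15421 genes (box, quartiles; whiskers, 5th to 95th percentile). The medians are -0.43, -0.42 and -0.19, and no gene of the 3 lists is more than 1.5-fold above the median gene.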

How the data were processed

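Per the labels' protocols, testes of w1118 males were fixed, accessory glands removed, pools of 1000 testes sonicated to 200 to 500 bp, and single 50 nt reads sequenced after 18 PCR cycles. The tools Bowtie2, CASAVA 1.9, R 2.15 and FastQC 0.10 and the build dm3 are named per the submitters' processing notes, and the sources used here do not say how reads were assigned to genes. The authors deposited log2 RPKM values, 1 per library. With 1 subtracted after exponentiation, 100% of values in both libraries were whole reads within 0.01, so they were read as log2(RPKM + 1). A column deposited by the authors as a MAnorm log2 fold change has an SD of 0.999 and was used as a score, in an alternative only. Every listed gene has at least 1 read in each library, which raises ratios of genes with few reads.

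Log2 ratios of recovered reads over library totals were centred on the median gene (Python 3.11.15, numpy 2.4.6, scipy 1.17.1). No p-value was computed. Members and lists were chosen with earlier results of these data known. Named are all members, genes overlapping them, the nearest genes beside the 2 highest and 2 lowest, and the 3 highest and 3 lowest of each list. With 1 ratio per gene, genes of like pattern are not defined and none is named. A RefSeq table of Release 6 gave gene names only; one gene, ranshi, had been put among the transport genes in error and was left out. The functions were tested on simulated reads. Promoter and protein sequences were not used here.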

Additional observations from a re-analysis of the deposited data

How the results depend on the processing

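No paired analysis was possible because each group has 1 library. The members' pooled ratio of -0.42 stayed within its counting interval as a median or mean of members, with any 1 member left out (-0.54 to -0.28) and among members overlapping no gene, and became -1.42 with library totals alone. The pooled difference ran from -0.52 to -0.40 against width-matched genes. It was -0.56 against the summed reads of genes reaching within 50000 bases, with long genes counted whole. Against width-matched genes the median over members ran from -0.49 to -0.31 under every alternative run. The 5 members at least 1.5-fold lower became 0 with a pseudocount of 5, 9 with library totals alone, and 2 at 2-fold. On the score less its median 6 members passed the same number, not all of them the same genes. Nup75 and Nup62 entered, both at -0.60, and Nup58 left, at -0.34. Where both RPKM values were at least 5, 1 of 2 members was lower, Nup62, which was not among the 5. Nup54 reversed, to -0.52 with library totals alone and -0.076 with RPKM of at least 5, where Nup62 moved to -0.60. That filter kept 3750 genes, partly for a high dBigH1 RPKM, and was centred on their own median. Ratios of the genes kept fall by construction, so it is no check on Nup54. Nup153 and Nup154 also changed side, to 0.08 and 0.33 on the score less its median and 0.02 and 0.003 with a pseudocount of 5.

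For all genes, 2665 lower and 2499 higher became 1780 and 1988 with a pseudocount of 1, 377 and 974 with a pseudocount of 5, 11838 and 467 with library totals alone, 225 and 661 with RPKM of at least 5, 1042 and 1186 at 2-fold, and 1462 and 1597 with at least 10 dBigH1 reads; higher genes were 4167 on the score. For the other nucleoporin genes, 7 lower became 2 with a pseudocount of 1, 1 with a pseudocount of 5, 20 with library totals alone and 1 at 2-fold, 1 was higher on the score, and the median became -0.18 with a pseudocount of 5 and -1.43 with library totals alone; RPKM of at least 5 left none of them. For transport genes, 5 lower became 3 and 0 with pseudocounts of 1 and 5, 26 with library totals alone, 0 of 2 with RPKM of at least 5, 9 on the score and 2 at 2-fold, 1 was higher on the score, and the median became -1.19 with library totals alone, -0.29 with RPKM of at least 5 and -0.44 on the score. Pseudocounts shrink ratios and filters test fewer genes by construction. Filters on the dBigH1 signal also lower the ratios of the genes kept, since the median is taken anew. Other causes were not tested. At 12 to 70 dBigH1 reads per member, only large differences were detectable for a single gene.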
